A study of Mus musculus with 24 samples.

Results

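Small RNA sequencing of Htt knockout (KO) mouse embryonic stem cells (mESC) was compared with that of wild-type (WT) mESC. The comparison holds 4 of the 24 libraries of the series, chosen by cell type and genotype in the labels: 2 KO and 2 WT libraries, each marked with the letter a or b. Htt encodes huntingtin, the protein that carries the expanded glutamine tract in Huntington disease. The other 8 mESC libraries come from heterozygous Hdh CAG knock-in lines titled Q20, Q50, Q92 and Q111 for their CAG repeats, with 2 libraries each. They were used for the spread between libraries and as a range of levels. Neural progenitor cells (NPC) of the same KO and WT genotypes, differentiated from mESC, gave 4 more libraries. NPC of the knock-in lines Q20, Q50, Q92 and Q111 were also sequenced, which makes 12 NPC libraries in all. The knock-in NPC entered the tests in NPC and the tests over 24 libraries. All mESC were grown with leukemia inhibitory factor on a feeder layer of irradiated CF-1 mouse fibroblasts. The labels used here do not say how the knockout was made, whether each genotype is 1 clone, or whether KO and WT descend from 1 parental line, so genotype and cell line cannot be told apart. They also do not say whether a and b are separate cultures, so p-values measure the spread between these samples, which may be technical.

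Small RNA libraries of this kind hold small nucleolar RNAs (snoRNAs), which guide chemical modification of ribosomal and spliceosomal RNA, together with microRNAs, spliceosomal RNAs, Y RNAs and fragments of longer transcripts. Box C/D snoRNAs carry a C box near the 5′ end and a D box near the 3′ end, and guide 2′-O-methylation. Most lie in introns of host genes. The imprinted Dlk1-Dio3 region expresses the noncoding RNAs Meg3, Rian and Mirg from the maternal chromosome, together with arrays of box C/D snoRNAs and a large microRNA cluster. In mouse stem cells this region is known to vary in expression between lines.

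The KO libraries held 2171235 (a) and 962520 (b) counts and the WT libraries 2281567 (a) and 1027593 (b). Levels are given below as CPM, counts per 1e6 of the library size after TMM scaling over the 12 mESC libraries, and 3 counts correspond to 1.53 to 2.77 CPM in these 4 libraries. snoRNA genes took 68.9% and 63.7% of the KO counts and 70.5% and 64.1% of the WT counts. Genes with a microRNA symbol took 0.206% and 0.465% of the KO counts and 0.236% and 0.483% of the WT counts, so microRNAs were measured at low depth. Over all 12 mESC libraries, letter b differed from letter a in 290 of 1766 genes (16.4%) at an adjusted p of 0.05, with 153 higher and 137 lower in b. The genotype contrast below sets only 2 KO against 2 WT libraries, so its count of calls has less power and is not comparable. Scaled by library totals instead, 311 genes were higher and 33 lower in b. All 14 mESC markers had counts, and their sum was 3051 and 3158 in KO and 3705 and 3810 in WT. Most of these were Mir293, at 2198 and 1749 against 2594 and 2197, and Mir292, at 593 and 1109 against 759 and 1244. The marker sums are raw counts, and the WT library was the deeper one in each letter. Of 14 feeder fibroblast markers, 10 were at 0 in all 4 libraries, among them Col1a1, Col1a2, Col3a1, Lum, Dcn, Postn and Thy1, and the list summed to 57 and 22 counts in KO and to 38 and 24 in WT, most of them Fn1, at 52 and 18 against 35 and 12. Neural markers summed to 11 and 9 counts in KO and to 4 and 5 in WT. Endoderm and mesoderm markers summed to 0 and 1 counts in KO and to 1 and 1 in WT. The part of such cells in the results was not tested, and fewer cells of a type and less RNA per cell cannot be told apart in these bulk libraries.

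Htt itself had 3 and 2 counts in KO and 8 and 8 counts in WT, which is 1.53 and 1.85 CPM against 4.01 and 6.81 CPM. The 2 genotypes did not overlap, and KO was the lower, as its label says. The 8 knock-in libraries ran from 0 to 5.18 CPM and overlapped both genotypes. The gene was below the filter on low counts and was not tested. These reads are fragments of a long messenger RNA over all its exons, and the labels do not place the deleted part, so this is a weak check of the genotype.

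The most marked difference between the genotypes lay in the imprinted Dlk1-Dio3 region, where Rian and an array of box C/D snoRNAs had higher levels in KO than in WT. Outside it, the snoRNA Snord13 and fragments of Pcm1 and Rbm26 were higher, and the snoRNA Gm25848 and fragments of Tmem245 and Prex2 were lower. None of these passed the threshold of the main test. In edgeR's quasi-likelihood test over the 12 mESC libraries with the letter as a block, 0 of 1766 genes (0%) passed for KO against WT after Benjamini-Hochberg adjustment at 0.05. At an unadjusted p under 0.05 stood 53 genes (3%), 31 higher and 22 lower in KO, and the smallest adjusted p was 0.320, for Rian. The DESeq2 Wald test with the same block called 1 gene, Rian, higher in KO. Leaving out the 2 Q20 libraries, whose letters did not deviate with those of the other lines, also gave 0 calls, with 53 of 1567 genes at an unadjusted p under 0.05. Fitted on the 4 KO and WT libraries alone with the same block, edgeR called 19 of 883 genes (2.15%), 13 higher (1.47%) and 6 lower (0.68%). Without the block that fit called 0 genes, with 6 at an unadjusted p under 0.05. The 4-library fit with the block has 1 residual degree of freedom per gene. In it, the weight that edgeR gave to the common trend of spread (prior degrees of freedom) was estimated as infinite. Without the block this weight was 6.84. The spread with the block is thus a single trend over all genes, with a biological coefficient of variation of 12.0%. Over 12 libraries the same coefficient was 25.2%. All but 2 of the 19 genes are given below with their values in each library.

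Among the 13 genes higher in KO in the 4-library fit, 6 came from 1 stretch of the Dlk1-Dio3 region: Rian and the snoRNA genes Gm25854, AF357428, AF357341, Gm25856 and Gm23787. The snoRNAs of this array are shown because they carry most of the difference in the region: together they held 3411 (a) and 3840 (b) CPM in KO and 2522 (a) and 1478 (b) CPM in WT. They are listed in order along the plus strand of chromosome 12 (GRCm38, GENCODE M21), 5′ to 3′, with capitals marking a C box (TGATGA) found in the first 20 bases and a D box (CTGA) found in the last 15 bases.
Gm24564, chr12:109631074-109631148: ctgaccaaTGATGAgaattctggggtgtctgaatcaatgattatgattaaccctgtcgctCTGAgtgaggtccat
AF357428, chr12:109679945-109680013: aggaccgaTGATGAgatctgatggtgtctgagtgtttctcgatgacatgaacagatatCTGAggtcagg
Gm23736, chr12:109680800-109680874: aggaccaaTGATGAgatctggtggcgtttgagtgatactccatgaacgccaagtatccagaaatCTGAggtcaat
AF357341, chr12:109681519-109681593: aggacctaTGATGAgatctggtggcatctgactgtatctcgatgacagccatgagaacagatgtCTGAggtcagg
Gm22981, chr12:109682384-109682458: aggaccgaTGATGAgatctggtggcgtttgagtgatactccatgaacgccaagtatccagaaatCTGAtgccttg
Gm25856, chr12:109682994-109683068: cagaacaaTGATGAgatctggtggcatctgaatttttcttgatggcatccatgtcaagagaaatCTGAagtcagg
Gm23787, chr12:109684962-109685034: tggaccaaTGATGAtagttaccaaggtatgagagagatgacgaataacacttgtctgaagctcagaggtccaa
Gm25854, chr12:109686798-109686869: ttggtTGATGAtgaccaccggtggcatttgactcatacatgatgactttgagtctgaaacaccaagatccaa
Both boxes were found in these windows in 6 of the 8 genes (75%) and in 295 of 501 annotated snoRNA genes of 60 to 110 bases (58.9%), searched on the gene's own strand. Gm24564 lies in an intron of Rian, and the other 7 lie between the annotated Rian and Mirg. AF357428 and AF357341 were identical at 82.7% of aligned positions. Gm22981 and Gm23736 were identical at 92% and shared 69.6% of their 30-base stretches, so reads from these 2 genes may not have been separable. None of the other 6 shared a 30-base stretch with another annotated transcript.

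Rian, an imprinted noncoding RNA that spans chr12:109603940-109661716, had the smallest p of all genes. It had 2709 and 1288 counts in KO and 1232 and 392 in WT, or 1379 (a) and 1189 (b) CPM in KO against 618 (a) and 334 (b) CPM in WT. Both KO libraries lay above both WT libraries, and the ratio of KO to WT was 2.23 within letter a and 3.56 within letter b. The log2 change was 1.49 ± 0.35 (SE) in the 12-library fit (unadjusted p = 0.000181, edgeR adjusted p = 0.320) and 1.51 ± 0.17 in the 4-library fit (edgeR adjusted p = 8.29e-15). Over 18 alternatives its log2 change stayed between 1.25 and 1.69 and its adjusted p ran from 9.06e-18 to 1, with 7 of the 18 under 0.05. Of these 7, all but the DESeq2 Wald test over 12 libraries were versions of the 4-library fit with the block. The 8 knock-in libraries ran from 663 to 3330 CPM with a median of 1381 CPM. The KO level was inside this range, and both WT libraries were below all 8. Exons of Rian overlap several small RNA genes, among them AF357425, and the counting of reads in overlaps is not given in the sources used here.

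All 8 tested snoRNAs of the array were higher in KO than in WT within both letters, a direction shown by 28% of all genes tested. In 4 of the 8, both KO libraries lay above both WT libraries, against 12.1% of all genes tested. Their median log2 change was 0.89, against 0.02 over all genes tested. Of the 23 listed members, the other 15 had no count in the 4 libraries. None of the 8 passed the adjusted threshold in the 12-library fit, 4 had an unadjusted p under 0.05, and 5 were called in the 4-library fit. The 8 share a locus and the same libraries and are not independent of each other.

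Gm25854 had 303 (a) and 647 (b) CPM in KO and 170 (a) and 233 (b) CPM in WT, from 595 and 701 against 338 and 274 counts. Its groups did not overlap, and its log2 change of 1.21 ± 0.45 (SE) in the 12-library fit was the highest of the 8. AF357428 had 492 and 716 CPM in KO and 352 and 235 CPM in WT, and its log2 change was 1.01 ± 0.39. AF357341 had 526 and 1136 CPM in KO and 389 and 412 CPM in WT, and its log2 change was 0.93 ± 0.42. In each of these 3 snoRNAs the gap between the KO and WT libraries was wider in letter b, with ratios of 2.77, 3.05 and 2.76, than in letter a, with ratios of 1.79, 1.40 and 1.35.

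Gm25856 had 776 and 461 CPM in KO and 529 and 169 CPM in WT, and its log2 change was 0.92 ± 0.40 (SE). Here WT a lay above KO b, so the groups overlapped although KO was higher within each letter. Gm23787 showed the same order, with 535 and 349 CPM in KO and 408 and 164 CPM in WT and a log2 change of 0.72 ± 0.41. Gm22981, Gm24564 and Gm23736 were not called in either fit. Gm22981 had 710 and 486 CPM in KO against 626 and 242 CPM in WT. Gm24564 had 105 and 28 counts against 67 and 13, and Gm23736 had 33 and 21 counts against 28 and 12. The edgeR adjusted p in the 4-library fit was 8.21e-06 for Gm25854, 2.77e-05 for AF357428, 3.23e-05 for AF357341, 5.50e-05 for Gm25856 and 0.0227 for Gm23787. With the DESeq2 Wald test on the same 4 libraries, Rian and the first 4 of these snoRNAs were called and Gm23787 was not. The size of these differences rested partly on single libraries. In the 12-library fit the log2 change of Gm25856 was 0.40 without WT b and 1.56 without WT a, and that of Gm25854 was 0.62 without KO b and 1.61 without KO a. AF357428 went from 0.58 without WT b to 1.47 without WT a, AF357341 from 0.52 to 1.33 and Gm23787 from 0.42 to 1.00 in the same way.

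**Figure D1:**
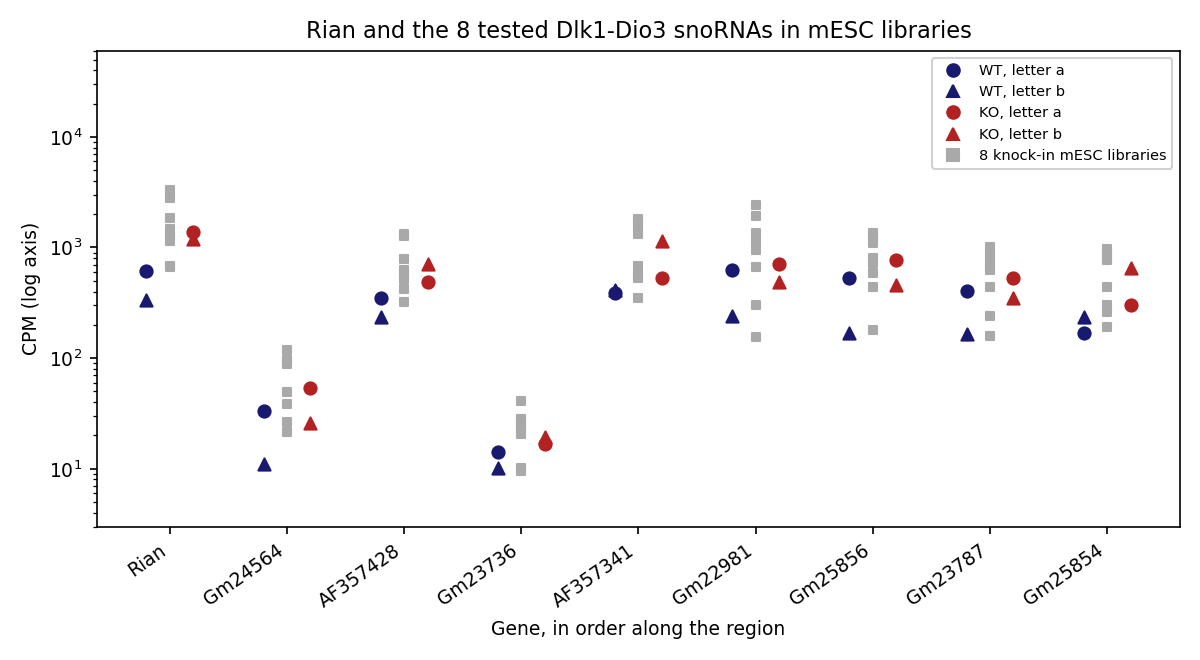
CPM on a log axis of Rian and the 8 tested snoRNAs of the Dlk1-Dio3 region in each mESC library, with WT in dark blue, KO in red and the 8 knock-in libraries as grey squares (circle, letter a; triangle, letter b). Within each letter the KO point is above the WT point for all 9 genes, and the KO points lie among the knock-in points.

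Summed over every annotated gene between the first base of Meg3 and the last base of Mirg (chr12:109541001-109749460), the KO libraries held 4986 (a) and 5314 (b) CPM and the WT libraries 3296 (a) and 1959 (b) CPM, from 9794 and 5757 against 6567 and 2300 counts. The KO to WT ratio was 1.51 within letter a and 2.71 within letter b. The sum ranged more widely among the knock-in lines: Q20 had 12980 and 11180 CPM, Q92 7302 and 7349, Q50 5419 and 4480, and Q111 4155 and 2919. Both KO libraries were inside this range of 2919 to 12980 CPM, and WT b was below it. With 2 libraries against 2, an exact permutation test of the sum could not have reached 0.05, and none was run. In NPC, whose CPM were scaled separately over the 12 NPC libraries, the same sum was 206 and 276 CPM in KO and 116 and 173 CPM in WT, from 88 and 110 against 74 and 77 counts. No difference of the knockout effect between mESC and NPC was called for Rian, where it was 0.79 ± 0.47 (SE) on the log2 scale with an edgeR adjusted p of 1.

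**Figure D2:**
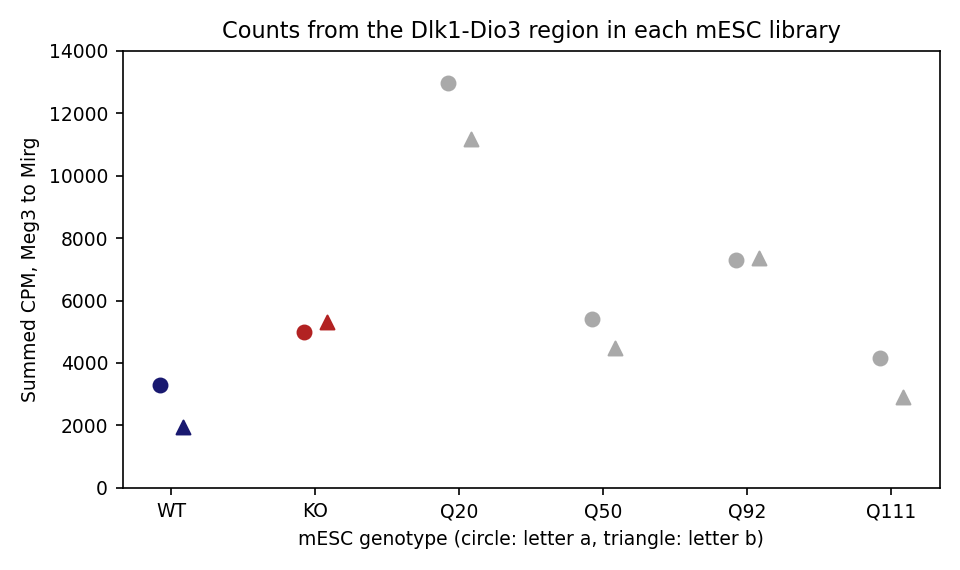
Summed CPM of all genes from Meg3 to Mirg in each of the 12 mESC libraries, by genotype (circle, letter a; triangle, letter b). The 2 KO libraries at 4986 and 5314 CPM lie above the 2 WT libraries and within the span of the knock-in lines, which reaches 12980 CPM in Q20.

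The microRNAs of the region were measured from few counts. Of 60 listed, 41 had a count in the 4 libraries and 14 were tested, with 9 higher in KO within both letters, 5 mixed and 0 lower within both. Their median log2 change was 0.51 and none passed the threshold in either fit. All 60 listed microRNAs, tested or not, summed to 181 and 235 CPM in KO and 146 and 117 CPM in WT. In the knock-in libraries this sum was 150 to 518 CPM. Mir127, which lies opposite the imprinted gene Rtl1, had 42 and 28 counts in KO and 29 and 13 in WT (log2 change 0.83 ± 0.44, SE). Mir341, in an intron of Rian, had 142 and 53 counts against 123 and 30. Both were higher in KO within each letter, and of these 2 only Mir127 had groups that did not overlap in CPM. Mir541 had 20 and 37 counts against 19 and 18, and Mir409 had 28 and 20 against 27 and 10. Mirg, the host transcript of many of these microRNAs, had 16 and 41 counts against 16 and 26, and Meg3 had 3 and 4 against 1 and 8. Exons of both overlap microRNA genes, among them Mir410 in Mirg and Mir770 in Meg3. How reads in such overlaps were counted is not given. Of all 27 tested genes between Meg3 and Mirg, 21 were higher in KO within both letters and 0 were lower within both, with a median log2 change of 0.73. Among all genes tested, 28% were higher and 25.2% lower within both letters. Counts per hairpin gene do not say which arm was read. The mature sequences of Mir127 and Mir341 (RefSeq, GRCm38.p6), with the seed at bases 2 to 8 in capitals, show that their arms share no seed.
mmu-miR-127-5p: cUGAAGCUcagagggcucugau
mmu-miR-127-3p: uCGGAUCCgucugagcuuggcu
mmu-miR-341-5p: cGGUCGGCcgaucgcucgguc
mmu-miR-341-3p: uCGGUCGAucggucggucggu

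Outside the region, Snord13 was the snoRNA with the smallest p. Snord13 (U13) is a box C/D snoRNA that takes part in the maturation of the small ribosomal RNA and is transcribed from its own gene. It had 11100 and 4901 counts in KO and 6363 and 2595 in WT, or 5651 and 4524 CPM against 3193 and 2210 CPM. Both KO libraries lay above both WT libraries, with ratios of 1.77 within letter a and 2.05 within letter b. The log2 change was 0.94 ± 0.35 (SE) in the 12-library fit and 0.95 ± 0.11 in the 4-library fit (edgeR adjusted p = 7.45e-14), and the adjusted p over 18 alternatives ran from 8.28e-15 to 1. The knock-in libraries spanned 1940 to 6196 CPM and covered both genotypes. In NPC, Snord13 had 1028 and 1226 CPM in KO and 1295 and 1130 CPM in WT, and its log2 change was -0.11 ± 0.17. The difference between the mESC and NPC changes, 1.07 ± 0.40, had an edgeR adjusted p of 0.685 over 24 libraries, and was among the 9 called when only the 8 KO and WT libraries were fitted.

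Other snoRNAs called in the 4-library fit had large counts and small differences. Snord82, in an intron of the nucleolin gene Ncl, had 70319 and 49096 CPM in KO and 60172 and 40303 CPM in WT, and its log2 change in the 4-library fit, as for the next 2 genes, was 0.27 ± 0.05 (SE). Snord87, in Snhg6, had 18695 and 16367 CPM against 17503 and 12400 CPM, a log2 change of 0.27 ± 0.07. In the opposite direction, Gm23301, in an intron of Rpl17, had 78478 and 47286 CPM against 89467 and 53333 CPM (log2 change -0.16 ± 0.05). In all 3 genes the letters differed more than the genotypes, and in the 12-library fit each change was smaller than its SE of 0.27 to 0.30. Scaled by library totals, the 4-library fit called 12 genes, and of these 3 only Snord82 was among them.

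Gm25848, a snoRNA gene in an intron of Fbxo45, was lower in KO. It had 45.3 and 36.9 CPM in KO and 98.9 and 74.1 CPM in WT, from 89 and 40 against 197 and 87 counts. The groups did not overlap, and the log2 change was -1.07 ± 0.40 (SE) in the 12-library fit and -1.05 ± 0.24 in the 4-library fit (edgeR adjusted p = 0.00112). The knock-in libraries ran from 14.2 to 61.6 CPM, and both WT libraries were above all 8. It shared 13.9% of its 30-base stretches with the annotated genes Gm23987 and Gm24241. In NPC the level was 98.1 and 103 CPM in KO and 90.8 and 85.2 CPM in WT.

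Taken as classes, the snoRNAs outside the region showed no call in the 12-library fit. Of 43 tested Snord genes, 9 were higher and 22 lower in KO within both letters, with a median log2 change of -0.09. Of 14 tested Snora genes, which are box H/ACA snoRNAs that guide pseudouridylation, 0 were higher and 9 lower within both letters, with a median log2 change of -0.36. The summed CPM of the 42 listed Snora genes had a KO to WT ratio of 0.717 within letter a but 0.985 within letter b. A lower level within both letters was shown by 25.2% of all genes tested, and a higher level by 28%. Snora69, in the ribosomal protein gene Rpl39, had 32 and 23 counts in KO and 55 and 43 in WT (log2 change -0.77 ± 0.41, SE). Gm24313, in Tbrg4, had 72 and 29 counts against 122 and 53. Snora62 had 93.2 and 126 CPM against 144 and 170 CPM, and Snora21 had 331 and 682 counts against 502 and 867. In Snora21 the letter difference was larger than the genotype difference, while for Snora62 the 2 KO libraries were the lowest of the 4. Of the 7 tested small Cajal body RNAs, which guide modification of spliceosomal RNA, 1 was higher and 3 were lower within both letters. Scarna6 had 556 and 659 counts in KO against 468 and 482 in WT.

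Among other small RNAs, Gm23143 and Rny1 were called higher in the 4-library fit. Gm23143, a spliceosomal RNA gene related to U5, had 276 and 305 CPM in KO and 164 and 153 CPM in WT, from 542 and 330 against 327 and 180 counts, with a log2 change of 0.89 ± 0.41 (SE) over 12 libraries, which was 0.45 without KO b and 1.20 without KO a. Both WT libraries were below all 8 knock-in libraries, which ran from 233 to 861 CPM. It shared 71.3% of its 30-base stretches with other annotated transcripts, among them Gm25313 and Rnu5g, and its own value is uncertain. Rnu5g had 649 and 1532 counts in KO and 1082 and 1231 in WT, with no common direction in the letters. Rny1, a Y RNA bound by the Ro60 protein, had 18227 and 13260 CPM in KO and 15172 and 9481 CPM in WT, and its log2 change was 0.37 ± 0.30 over 12 libraries and 0.39 ± 0.08 over 4. Its groups overlapped, since WT a was above KO b, and it shared 38.6% of its stretches with Gm26168. Another Y RNA, Rny3, had 401 and 482 CPM in KO and 492 and 491 CPM in WT. Of 17 tested spliceosomal RNA genes in all, 3 were higher and 3 lower within both letters, against 28% and 25.2% of all genes tested. Rn7sk, the RNA that holds the elongation factor P-TEFb inactive, had 145 and 198 CPM in KO and 212 and 208 CPM in WT.

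MicroRNAs of the stem cell clusters were not called in either fit. The Mir290 to Mir295 cluster is the most abundant microRNA cluster of mouse embryonic stem cells, and the Mir302 cluster shares its main seed. The mature sequences (RefSeq, GRCm38.p6) are shown with the seed in capitals because members with the same seed can repress the same targets: AAGUGCU is shared by the first 3 and CUCAAAC by the last 2.
mmu-miR-291a-3p: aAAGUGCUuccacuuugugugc
mmu-miR-295-3p: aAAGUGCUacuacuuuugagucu
mmu-miR-302b-3p: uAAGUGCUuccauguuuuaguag
mmu-miR-292a-5p: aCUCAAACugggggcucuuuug
mmu-miR-293-5p: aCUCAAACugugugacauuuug
Of 14 stem-cell microRNA genes listed, 9 were tested, with 0 higher and 4 lower in KO within both letters and a median log2 change of -0.22. Over all genes tested, 28% were higher and 25.2% lower within both letters. Mir293 had 2198 and 1749 counts in KO and 2594 and 2197 in WT (log2 change -0.22 ± 0.34, SE). Mir292 had 593 and 1109 counts against 759 and 1244, Mir295 87 and 192 against 139 and 229, and Mir291a 41 and 52 against 63 and 55. In CPM the groups overlapped for all 4, and the letter b libraries were higher than the letter a libraries. Mir302b, which the rule for named genes did not pick, had 17 and 2 counts against 45 and 3. In CPM this was 8.65 and 1.85 against 22.6 and 2.56. The KO and WT libraries were all below the knock-in mESC libraries, which ran from 25.9 to 747 CPM. Of the 15 genes of the Mir17-92 cluster and its paralogs, 6 were tested, 1 higher and 2 lower within both letters. Mir106a had 73 and 20 counts in KO and 120 and 24 in WT. Mir182 had 80 and 99 counts against 110 and 86. No let-7, feeder or neural microRNA had enough counts to be tested. Mir142, named after its values were seen, had 1 and 1 counts in KO and 10 and 8 in WT (unadjusted p = 0.00125, edgeR adjusted p = 0.644). Mir142b overlaps it on the other strand, and whether strand was used in counting is not given in the sources used here.

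Counts assigned to protein-coding genes made up 4.34% and 4.91% of the KO counts and 4.29% and 4.74% of the WT counts. Snrpb, which encodes a core protein of spliceosomal particles, alone held 52.9% and 45.0% of them in KO and 55.0% and 43.5% in WT. Its log2 change was 0.01 ± 0.29 (SE) in the 12-library fit. Whether the reads counted for Snrpb come from its messenger RNA was not tested. Pcm1, the scaffold protein of centriolar satellites, had 36 and 15 counts in KO and 9 and 6 in WT, or 18.3 and 13.8 CPM against 4.52 and 5.11 CPM. Its log2 change was 1.77 ± 0.51 (SE) in the 12-library fit (unadjusted p = 0.00146) and its edgeR adjusted p in the 4-library fit was 0.00323. Rbm26, an RNA-binding protein gene, had 20 and 13 counts against 3 and 3, a log2 change of 2.47 ± 0.65, which was 2.06 without WT a and 2.75 without WT b. For Rbm26, whose WT counts are at the limit that a count of 0 allows, the ratio of the summed counts was 5.72 with an exact 95% interval of 2.36 to 16.7, which covers counting error only. Both genes were higher in KO in both letters without overlap. Tmem245, a membrane protein gene, had 4 and 2 counts in KO and 17 and 10 in WT, and Prex2, an exchange factor for Rac, had 7 and 6 against 23 and 15. Their log2 changes in the 12-library fit were -2.09 ± 0.64 and -1.47 ± 0.51, and their groups did not overlap. That of Prex2 was -0.91 without WT a and -2.0 without WT b. The ratio of KO to WT from the summed counts of Tmem245 was 0.231, with an exact 95% interval of 0.078 to 0.571. For each of these 4 the knock-in range overlapped the KO libraries, and for Tmem245 both WT libraries were above all 8 knock-in libraries.

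Among genes with a mean of at least 10 CPM in the 4 KO and WT libraries and the same direction in both letters, the messenger RNA genes lower in KO with the smallest p in the 12-library fit were not called in either fit. They included Ddx21, a nucleolar RNA helicase, with 11 and 9 counts in KO and 26 and 20 in WT, and Nasp, a histone chaperone, with 15 and 11 against 34 and 24. Ube3a, a ubiquitin ligase gene imprinted in neurons, had 15 and 6 counts against 32 and 13. Its exons overlap Snhg14 and other annotated genes on the other strand, and whether strand was used in counting is not given. Zdbf2, an imprinted gene, had 20 and 4 counts against 25 and 19, and Sp1, a transcription factor, had 19 and 8 against 34 and 15. The log2 changes of these 5 genes ran from -1.13 ± 0.48 (SE) for Ddx21 to -0.80 ± 0.44 for Sp1. Zdbf2 and Sp1 did not reach the unadjusted level.

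Messenger RNA genes grouped by function, and mitochondrial transcripts, showed no call in either fit. Of 24 tested splicing factor genes, 7 were higher and 1 lower in KO within both letters, with a median log2 change of 0.15. Snrpb, a core spliceosomal protein gene, had 25404 and 19621 CPM in KO and 26990 and 18076 CPM in WT. Its level was far above that of every other tested splicing factor gene. Whether the reads counted for Snrpb come from its messenger RNA was not tested, so its values may not describe that messenger RNA. Of 43 tested replication-dependent histone genes, 14 were higher and 6 lower within both letters. Hist4h4 had 190 and 171 counts in KO and 157 and 146 in WT, and Hist1h3b had 54 and 286 against 97 and 250. Of 48 tested ribosomal protein genes, 8 were higher and 18 lower, and Rpl7a, whose gene hosts snoRNAs, had 3000 and 2478 counts against 3583 and 2701. Exons of Rpl7a overlap the annotated genes Gm22879 and Gm24134, so its counts may not come from its messenger RNA. Of 18 tested pluripotency genes, 4 were higher and 7 lower, and Sox2 had 40 and 7 counts against 49 and 14. Of 21 tested mitochondrial transcripts, which include transfer and ribosomal RNAs, 5 were higher and 6 lower. The large mitochondrial ribosomal RNA, mt-Rnr2, had 3873 and 3601 counts against 4910 and 3692. These shares can be read beside the 28% of all genes that were higher and the 25.2% that were lower within both letters.

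**Figure D3:**
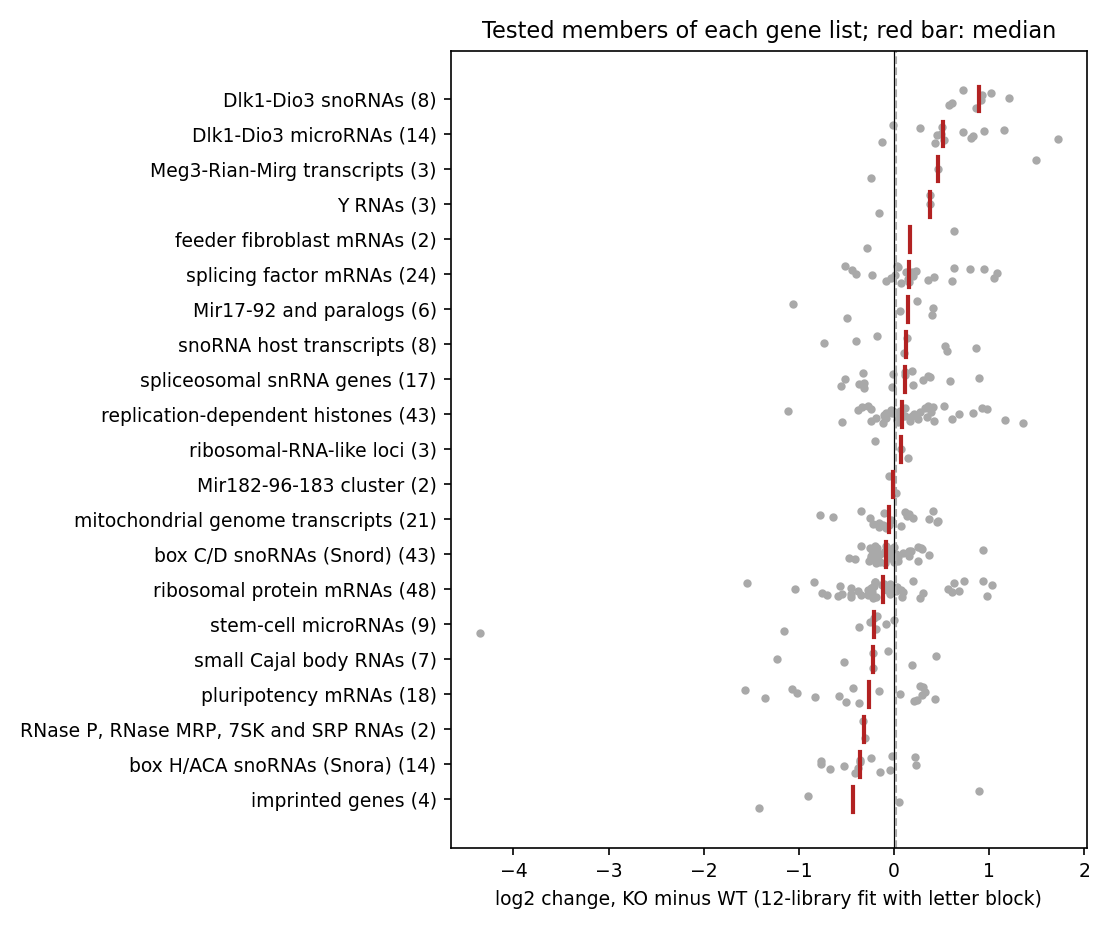
Log2 change between KO and WT mESC in the 12-library fit for each tested member (grey point) of the listed gene groups, with the median as a red bar, the number of tested members in brackets and the median of all tested genes as a dashed line. The snoRNAs of the Dlk1-Dio3 region have a median of 0.89 and the box H/ACA snoRNAs one of -0.36, and no point passed the adjusted threshold.

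**Figure D4:**
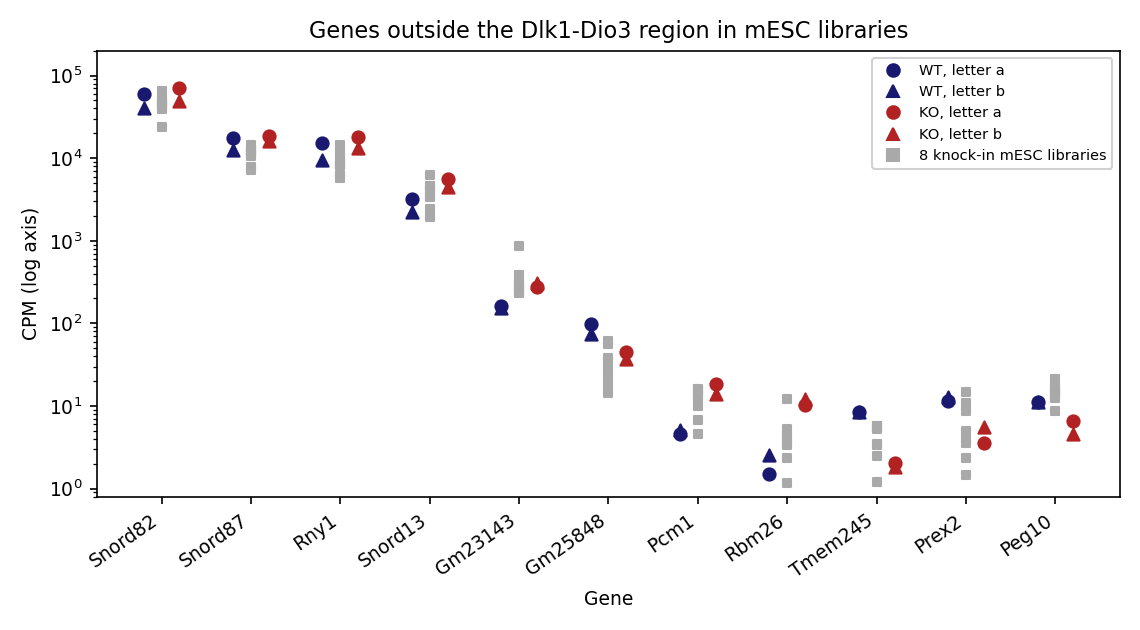
CPM on a log axis of the other genes described, in each mESC library (WT dark blue, KO red, 8 knock-in libraries grey; circle, letter a; triangle, letter b). Snord82, Snord87 and Rny1 differ by letter more than by genotype, while Snord13, Gm23143, Gm25848, Pcm1, Rbm26, Tmem245, Prex2 and Peg10 have KO and WT points that do not overlap.

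How far the letters agreed was also measured directly. Over 444 genes with a mean of at least 10 CPM and no zero in the 4 libraries, the log2 ratio of KO to WT in letter a and that in letter b had the same sign in 57.4%. Across these genes, which are not independent replicates, Pearson's r was 0.20 and Spearman's rho 0.24. Of the 19 genes called in the 4-library fit, the KO libraries were both outside the knock-in range for 1, Snord87, and the WT libraries were both outside it for 4: Rian and Gm23143 below, Gm25848 and Tmem245 above.

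**Figure D5:**
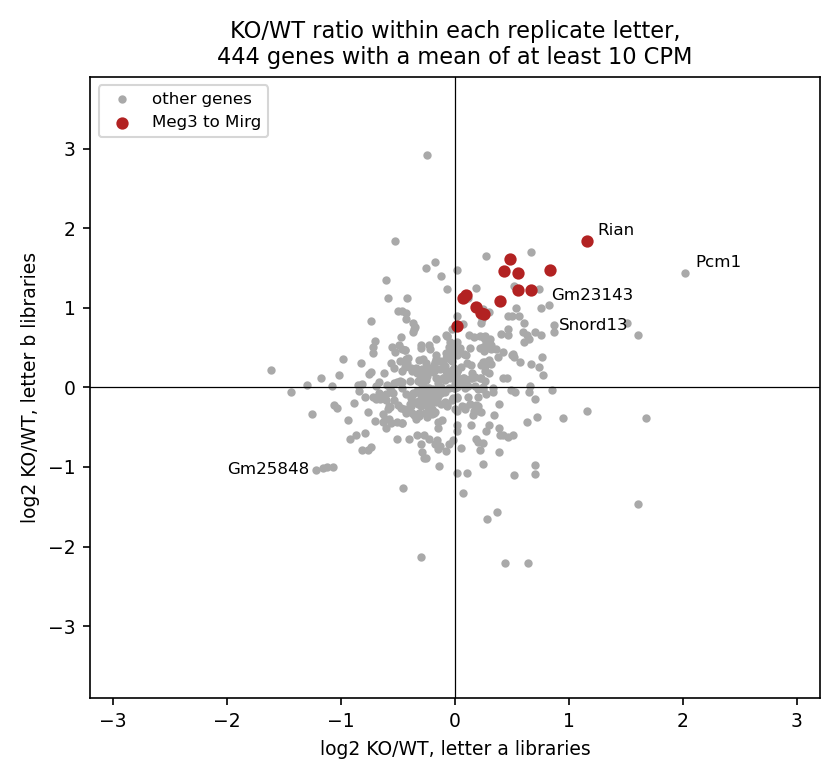
Log2 ratio of KO to WT within letter a (x axis) and within letter b (y axis) for 444 genes with a mean of at least 10 CPM, with genes between Meg3 and Mirg in red. The red points all lie to the upper right of the origin, where KO is higher in both letters, while the grey points lie on all sides of it.

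The knockout effect in mESC was set beside that in NPC. There KO against WT, fitted over 12 NPC libraries with the letter as a block, called 8 of 441 genes (1.81%). A difference between the 2 effects was called for 1 of 904 genes (0.111%) over all 24 libraries, with 42 at an unadjusted p under 0.05. That gene was Peg10, an imprinted gene derived from a retrotransposon. In mESC it had 13 and 5 counts in KO and 22 and 13 in WT, or 6.62 and 4.62 CPM against 11.0 and 11.1 CPM. In NPC it had 20 and 19 counts in KO and 2 and 6 in WT, or 46.7 and 47.7 CPM against 3.13 and 13.5 CPM. KO was below WT in both mESC letters and above it in both NPC letters. The log2 change was -0.90 ± 0.51 (SE) in mESC, which was not called, and 2.61 ± 0.50 in NPC. In mESC it was -0.61 without KO b and -1.48 without KO a. The call of a difference was lost with no replicate block, with DESeq2 size factors, with no filter on low counts and without any 1 of the 8 KO and WT libraries other than WT NPC b.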

How the data were processed

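Small RNA libraries of 24 mouse samples were analysed from 1 deposited table that gives raw read counts as whole numbers for 55335 Ensembl gene identifiers. Per the labels' protocols, TRIzol RNA was sequenced as 50-base single reads at a stated depth of about 15M reads a sample. The submitters' processing notes name CASAVA 1.8, STAR, HTSeq and GRCm38.p6 with no roles. Adapter trimming, strand and the treatment of multiply mapped or overlapping reads are not given in the sources used here. The deposited counts of the 4 KO and WT mESC libraries sum to 962520 to 2281567, and intervals and limits cover counting error only. The columns named Q89 were taken as the samples titled Q92, from the 89 repeats in the growth protocol.

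Identifiers were matched to GENCODE M21 (GRCm38), and 55154 matched. Tests used glmQLFit and glmQLFTest of edgeR 4.0.16 in R 4.3.3 with TMM scaling and filterByExpr (minimum count 10, minimum total 15), on the 12 mESC libraries with the replicate letter as a block. P-values of the edgeR tests were adjusted by Benjamini and Hochberg over all genes tested, at 0.05. Those of the DESeq2 Wald test were adjusted within DESeq2 with its default filtering of genes, so that adjustment may cover fewer genes. The SE is the absolute log2 change divided by the root of F. Same-lettered libraries deviated together with r from 0.405 to 0.508 for the 10 group pairs that leave out Q20 (KO with WT, 0.508) and from -0.0006 to 0.0785 for the other 5, and no label states what the letter marks. Replicates of a group differed beyond sampling noise (chi-square per degree of freedom 44.6 in KO and 43.1 in WT). Alternatives used DESeq2 1.42.0 size factors or its Wald test, library totals, no filter, other sets of libraries and the omission of each library. Scripts were tested on simulated data.

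Named genes were Htt, the 8 per direction with the smallest p among those with a mean of at least 10 CPM and the same direction in both letters, up to 4 of the most abundant tested members of each list, and genes called by the 4-library fit, which were chosen after their values were seen. The members and lists were chosen with earlier results of these data known. Mir302b and Mir142 were named outside this rule. Not every gene picked by this rule is printed, and 2 of the 19 genes called by the 4-library fit are not reported here.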

Additional observations from a re-analysis of the deposited data

Results flagged for a closer look

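The difference of the knockout effect between mESC and NPC was called for Peg10, at -3.51 ± 0.76 (SE) on the log2 scale with an edgeR adjusted p of 0.0309 over 24 libraries. In KO, Peg10 was below WT in both mESC letters and above WT in both NPC letters, from 2 to 22 counts a library. Over the alternatives, it was called with library totals, with the 8 KO and WT libraries alone and without WT NPC replicate b, and not with no replicate block, with DESeq2 size factors, with no filter or without any of the other 7 libraries.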

How the results depend on the processing

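For KO against WT in mESC, the count of called genes was 0 with no replicate block, with DESeq2 size factors, with library totals, with no filter, without Q20 and without each library in turn (0 to 0, the library left alone in its group being taken to vary like the other groups), and 1 with the DESeq2 Wald test (Rian). The 4 KO and WT libraries with the replicate block gave 19, and without it 0. Within that 4-library fit, alternatives added after the data were seen gave 20 with DESeq2 size factors (12 higher, 8 lower, 18 shared with the 19), 12 with library totals (11 higher, 1 lower), 7 with no filter, 6 with the DESeq2 Wald test and 16 with edgeR's newer quasi-likelihood method (13 higher, 3 lower). Rian, Snord13, AF357341, AF357428, Gm25854 and Gm25856 were called in each of these 4-library fits with a block. For the difference between the mESC and NPC effects, the count of 1 became 0 without the block, 0 with DESeq2 size factors, 0 with no filter and 9 with the 8 KO and WT libraries alone (8 higher, 1 lower), and was 0 to 1 without each library. The cause of these changes was not tested. The letter effect stayed between 290 and 421 genes. Over 96 named genes, no called value changed sign. Depth limits genes with few counts: 3 counts are 1.53 to 2.77 CPM in the KO and WT mESC libraries.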
